A study of Homo sapiens with 4 samples.

Results

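Transcripts of 38 glycolysis and hypoxia-response genes were examined in T24 cells, a line established from a human bladder carcinoma. The members were the rows of the deposited table that carry the 38 chosen gene symbols, out of 60623 genes in all, and the rule names symbols with no threshold on expression. They comprise 4 membrane transporters, 15 genes of the 10 steps from glucose to pyruvate, 3 PFKFB regulators, 4 genes of pyruvate fate, 2 HIF alpha subunits, and 10 HIF targets and oxygen-sensing enzymes. The 2 groups, of 2 libraries each, were, control T24 cells (T24-CON) and T24 cells made to express CBX7 (T24-CBX7), both grown in RPMI with 10% FCS. CBX7 is a chromobox protein of the Polycomb repressive complex. It was cloned into a FLAG-tagging pCDH vector, and neither the labels nor the methods say whether the cells were 1 clone, what the control cells carried, or whether the libraries of a group came from separate cultures. The p-values therefore measure the spread between these libraries, which may be technical. The study asked how transcription changes when CBX7 is expressed.

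Glycolysis converts glucose to pyruvate in the cytosol, and most of its steps can be carried out by more than one isoenzyme, encoded by separate genes. In many tumor cells pyruvate is largely reduced to lactate and exported even when oxygen is present. When oxygen is short, the prolyl hydroxylases that mark HIF alpha subunits for destruction slow down, and the stabilized subunits induce glucose transporters, glycolytic enzymes, carbonic anhydrases and mitophagy receptors. HIF alpha is regulated largely at the protein level, which RNA libraries do not measure. The labels name no oxygen treatment.

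HIF dimers bind a core of ACGTG or GCGTG, and RefSeq promoter windows (GRCh38.p14) were available for 33 of the 38 members. BNIP3L, NDRG1, PFKFB2, SLC16A1 and SLC2A3 were not looked at. In the 250 bases before a start site, searched on both strands, 27 of 33 member genes (81.8%) held at least 1 of these cores, against 47.4% of 27305 genes. Some genes have several windows, and per window the share was 58.3% of 60 member windows and 43.2% of 35116 windows. For ACGTG alone it was 36.7% against 18.5% of windows, and for GCGTG alone it was 31.7% against 32.2%. ACGTG overlaps the E-box CACGTG, which counts once on each strand and stood in 13.3% of member windows and 6.34% of all windows. A match of 5 letters is a description and not a binding site. PGK1, GAPDH, HK2 and BNIP3 are printed because they cover an ATP-yielding enzyme, the most abundant member, an inducible isoenzyme and a hypoxia target. Of these genes HK2 alone has a second window, which is not printed. The stretches avoid exons of GENCODE 29 and are those with the most matches for each gene, and capitals mark the cores on either strand. They are from PGK1 (chrX:78103998-78104173, plus strand, 3 matches), GAPDH (chr12:6535142-6535263, plus strand, 2 matches), HK2 (chr2:74834920-74835169, plus strand, 6 matches) and BNIP3 (chr10:131982014-131982173, minus strand, 6 matches).
PGK1: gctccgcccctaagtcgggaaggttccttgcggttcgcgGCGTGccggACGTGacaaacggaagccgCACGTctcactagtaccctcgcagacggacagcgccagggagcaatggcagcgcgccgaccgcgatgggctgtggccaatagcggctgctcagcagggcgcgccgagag
GAPDH: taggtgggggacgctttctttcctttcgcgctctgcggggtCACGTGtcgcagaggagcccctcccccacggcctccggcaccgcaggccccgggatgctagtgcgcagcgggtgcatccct
HK2: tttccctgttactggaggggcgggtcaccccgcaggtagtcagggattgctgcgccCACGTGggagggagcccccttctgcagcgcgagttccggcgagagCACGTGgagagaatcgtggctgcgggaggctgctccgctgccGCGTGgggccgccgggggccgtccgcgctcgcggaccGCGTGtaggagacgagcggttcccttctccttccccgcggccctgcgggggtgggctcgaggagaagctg
BNIP3: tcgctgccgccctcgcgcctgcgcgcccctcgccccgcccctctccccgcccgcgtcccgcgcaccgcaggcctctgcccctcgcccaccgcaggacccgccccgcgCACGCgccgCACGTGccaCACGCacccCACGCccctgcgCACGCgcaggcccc

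The expected counts (estimated reads per gene, which need not be whole) summed to between 20800910 and 25135488 per library, and 3 counts, the upper limit behind a count of 0, corresponded to 0.119 to 0.144 CPM (the count scaled by library size). CBX7 (ENSG00000100307) had 261.4 and 203.3 counts in control cells and 42852 and 35641 in CBX7 cells, so every label matched the expressed gene. Of the bladder epithelial markers, KRT7, KRT8 and KRT18 were abundant, whereas KRT5, KRT14, KRT20, TP63, CDH1 and the 4 uroplakins were at 0.27 TPM or less (a level scaled by gene length and library size). The 18 epithelial markers summed to 3182 to 3281 TPM in control and 3385 to 3761 TPM in CBX7 libraries, and 8 of 8 tested had a positive log2 fold change, beside 50.3% of all tested genes. Without CBX7 replicate 1, 6 of 8 were positive. The mesenchymal markers VIM, CDH2 and FN1 summed to 3327 to 3357 TPM in control and 2495 to 2592 TPM in CBX7 libraries. The 7 markers of blood, endothelium, fibroblast and muscle summed to at most 1.41 TPM. In bulk RNA, fewer cells of a type and less RNA per cell cannot be told apart. The replicate 1 libraries carried a trend with gene length, most of all CBX7 replicate 1. Over 11077 genes, the log2 ratio of the replicate 1 libraries followed gene length with a Spearman's rho of -0.62, and that of the replicate 2 libraries with 0.04. Within the groups it was -0.49 for control replicate 1 over control replicate 2 and -0.70 for CBX7 replicate 1 over CBX7 replicate 2. The part of these marker shifts in the results was not tested. Values after a correction for gene length are given beside the members whose sign it turned (HK2, GAPDH and BNIP3).

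**Figure D1:**
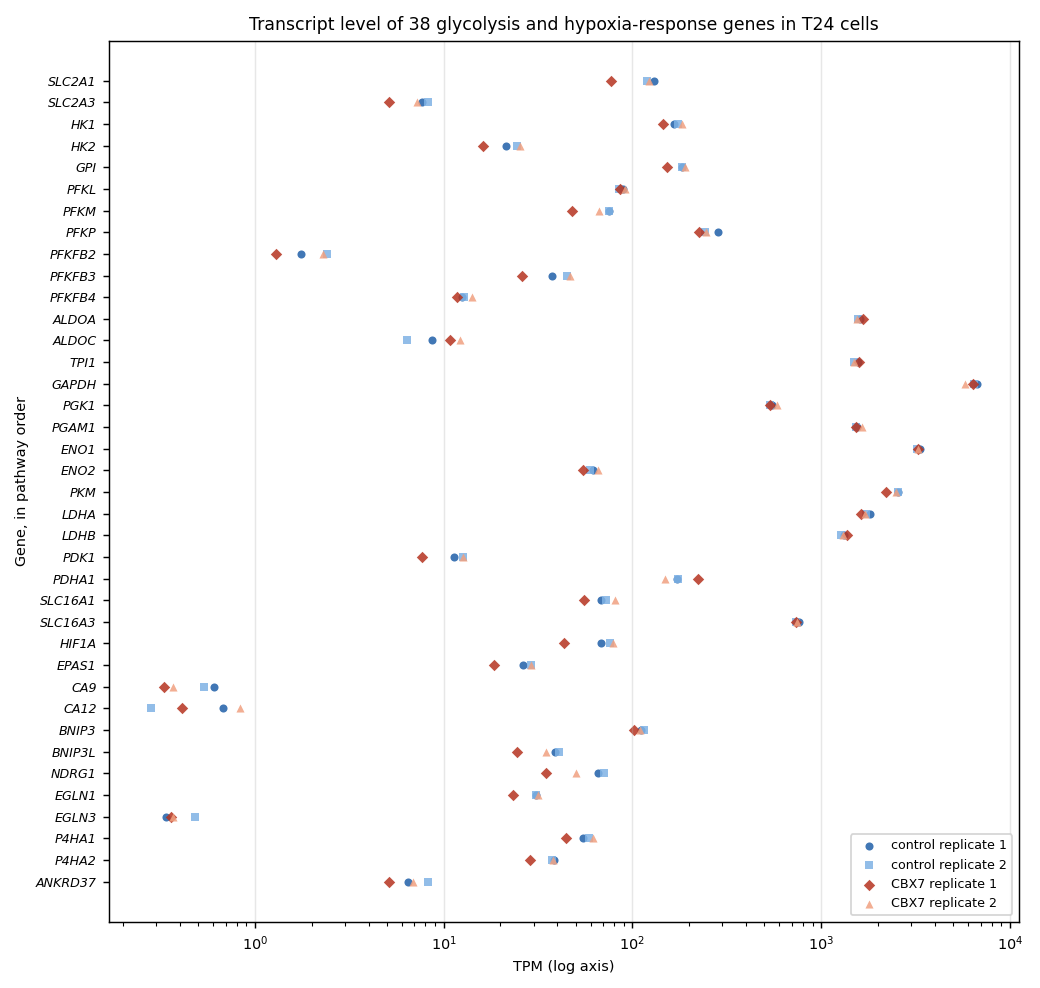
Level of each of the 38 members in TPM (horizontal, log axis) with genes in pathway order (vertical). Each point is 1 library, blue for control and red for CBX7. GAPDH lies at 5809 TPM or more in every library, CA9, CA12 and EGLN3 lie below 1 TPM, and the darker red points of CBX7 replicate 1 often lie to the left of the other 3.

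All 38 members passed the filter on low counts. They accounted for 2.25% to 2.37% of all TPM in each library, and the 15 glycolytic genes alone for 1.79% to 1.89%. In control cells 8 members exceeded 1000 TPM, 8 lay between 100 and 1000 TPM, 15 between 10 and 100 TPM, 4 between 1 and 10 TPM and 3 under 1 TPM. The first group held GAPDH, ENO1, PKM, LDHA, ALDOA, PGAM1, TPI1 and LDHB, all of them enzymes from the aldolase step onward. HK1, GPI and PFKP, which act before glucose is split, were all in the second group. PGAM1, ALDOA and TPI1 were neighbors in this order whose ranges over the libraries overlapped.

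None of the 38 members passed an adjusted p of 0.05 when the whole table of 14862 genes was tested by edgeR (quasi-likelihood, Benjamini-Hochberg), where 3 genes (0.0202%) did. The lowest adjusted p of a member was 0.597. At an unadjusted p under 0.05 there were 2 members, ALDOC (higher with CBX7) and NDRG1 (lower), beside 4.74% of all tested genes, 3.42% on the higher and 1.32% on the lower side. With these 4 libraries an exact two-sided permutation test of 1 gene cannot go below p = 0.333. The log2 fold change was positive for 19 members and negative for 19, with a median of 0.01 beside 0.00 over all genes. It was under 0.2 in size for 31 of 38 members, beside 9138 of 14862 tested genes. On the CPM scale, 5 members were above both controls in each CBX7 library, beside 15.4% of all tested genes, and 7 were below both, beside 14.8%. With CBX7 replicate 1 left out, ALDOC and NDRG1 had an adjusted p under 0.05, as did 2.59% of all genes. With CBX7 replicate 2 left out, 18 members did, beside 35.5% of all genes.

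**Figure D2:**
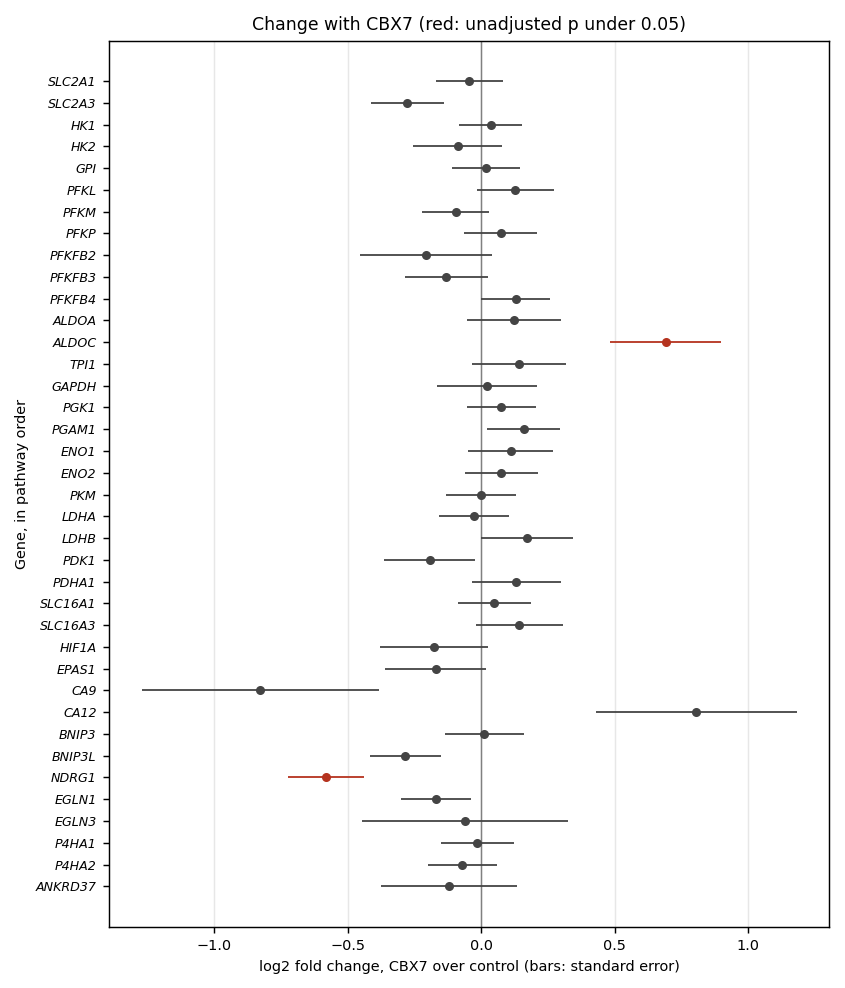
Log2 fold change of CBX7 over control for each member (horizontal, bars are the standard error from edgeR) with genes in pathway order. Red marks the 2 members with an unadjusted p under 0.05, ALDOC at 0.69 and NDRG1 at -0.58. CA9 and CA12 lie farther from 0 with bars at least 0.38 wide on each side.

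Of the glucose transporter genes, SLC2A1 (GLUT1, the widespread basal transporter) was the most abundant of those examined. Its level was 129.8 and 119.6 TPM in control replicates 1 and 2 and 77.2 and 122.4 TPM in CBX7 replicates 1 and 2. SLC2A3 (GLUT3, a high-affinity transporter) had 7.70 and 8.23 TPM in control cells and 5.15 and 7.25 TPM in CBX7 cells. SLC2A1 thus made up 93.6% to 94.4% of the TPM of this pair in every library. The level of SLC2A1 in CBX7 replicate 1 was far below the others in TPM but not in CPM, where the 4 libraries ran from 211.7 to 229.2 CPM and the log2 fold change was -0.04 (standard error 0.12). SLC2A3 lay below both controls in both CBX7 libraries, with a log2 fold change of -0.28 (standard error 0.14, adjusted p = 0.951, edgeR). SLC2A2 was listed at 0 and SLC2A4, the insulin-responsive transporter, had at most 0.04 TPM. The near-identical copy SLC2A14 had at most 0.03 TPM. SLC2A8, a mainly intracellular transporter and not a member, had 11.2 and 13.5 TPM in control cells and 13.8 and 13.7 TPM in CBX7 cells, more than SLC2A3 in every library. On the log2 scale it differed by 0.35 between the groups (standard error 0.18, adjusted p = 0.951, edgeR).

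The same split between the scales ran through the members. Between the replicate 1 libraries, 32 members were lower with CBX7 in TPM but 18 in CPM, and the TPM ratio was below the CPM ratio for 36 of 38, by a median of 0.24 on the log2 scale. Between the replicate 2 libraries the median difference was 0.03. TPM depends on lengths other than those in the table and is used for levels, sums and shares within a library. Group differences in TPM are given as values with no test, and every test rests on counts.

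Hexokinase, which traps glucose in the cell, was mainly HK1. HK1 had 165.5 and 175.3 TPM in control cells and 145.6 and 182.6 TPM in CBX7 cells. HK2, the isoenzyme often induced in tumors, had 21.4 and 24.5 TPM in control cells and 16.1 and 25.2 TPM in CBX7 cells. The TPM ratio of HK1 to HK2 was between 7.15 and 9.04 in the 4 libraries. HK3 was listed at 0 in all libraries. ADPGK, which phosphorylates glucose with ADP and is not a member, had 40.8 to 53.2 TPM, above HK2 in every library. The log2 fold change was 0.03 (standard error 0.12) for HK1 and -0.09 (standard error 0.17) for HK2, and the HK2 value became 0.01 after a correction for gene length. GPI, the isomerase of the next step, had a log2 fold change of 0.02 (standard error 0.13) and stood at 182.1 and 182.9 TPM in control cells and 152.7 and 189.0 TPM in CBX7 cells.

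Phosphofructokinase, the committed step, was the one with the most even mixture of genes in the upper pathway. PFKP (platelet type) had 283.2 and 241.4 TPM in control cells and 225.6 and 244.9 TPM in CBX7 cells, which was 60.1% to 63.3% of the 3 genes. PFKL (liver type) had 88.8 and 85.05 TPM in control cells and 86.3 and 91.5 TPM in CBX7 cells. PFKM (muscle type) had 75.4 and 75.2 TPM in control cells and 47.8 and 66.6 TPM in CBX7 cells. The PFKL share was higher in both CBX7 libraries, 20.5% ± 0.94 in control and 23.4% ± 0.90 in CBX7 cells (SD, n = 2), and the PFKM share was lower, 17.8% ± 1.33 against 14.9% ± 2.29 (SD, n = 2). These shares rest on TPM, and the log2 fold changes from counts were 0.13 (standard error 0.14) for PFKL and -0.10 (standard error 0.12) for PFKM. Of the PFKFB genes, whose products set the level of the activator fructose 2,6-bisphosphate, PFKFB3 led with 37.6 and 45.3 TPM in control cells and 26.0 and 46.7 TPM in CBX7 cells. PFKFB4 followed at 12.5 and 12.8 TPM in control cells and 11.8 and 14.1 TPM in CBX7 cells, and PFKFB2 at 1.29 to 2.41 TPM. PFKFB4 was higher in both CBX7 libraries on the CPM scale, by 0.13 on the log2 scale (standard error 0.13).

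Aldolase, which splits the 6-carbon sugar, was almost entirely ALDOA, at 1612 and 1558 TPM in control cells and 1656 and 1545 TPM in CBX7 cells. ALDOC (ENSG00000109107, chromosome 17 of GRCh38 from 28573115 to 28577264, minus strand), the isoenzyme known from brain, had 221 and 139 counts in control cells and 321 and 277 counts in CBX7 cells, or 8.71 and 6.43 TPM against 10.9 and 12.2 TPM. Both CBX7 libraries lay above both controls. The CPM was 7.94 ± 1.87 in control and 12.8 ± 0.63 in CBX7 cells (SD, n = 2), a log2 fold change of 0.69 (1.61-fold, standard error 0.21, unadjusted p = 0.018, adjusted p = 0.805, edgeR). Its log2 fold change was 0.47 to 0.95 when a library was left out, which leaves a lone library in a group. ALDOC made up 0.47% ± 0.089 of aldolase TPM in control and 0.72% ± 0.093 in CBX7 cells (SD, n = 2), and the summed level of the step was 1593 ± 39.7 and 1612 ± 77.7 TPM. All 250 bases before the RefSeq start of ALDOC lie in an annotated exon and are not shown.

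**Figure D3:**
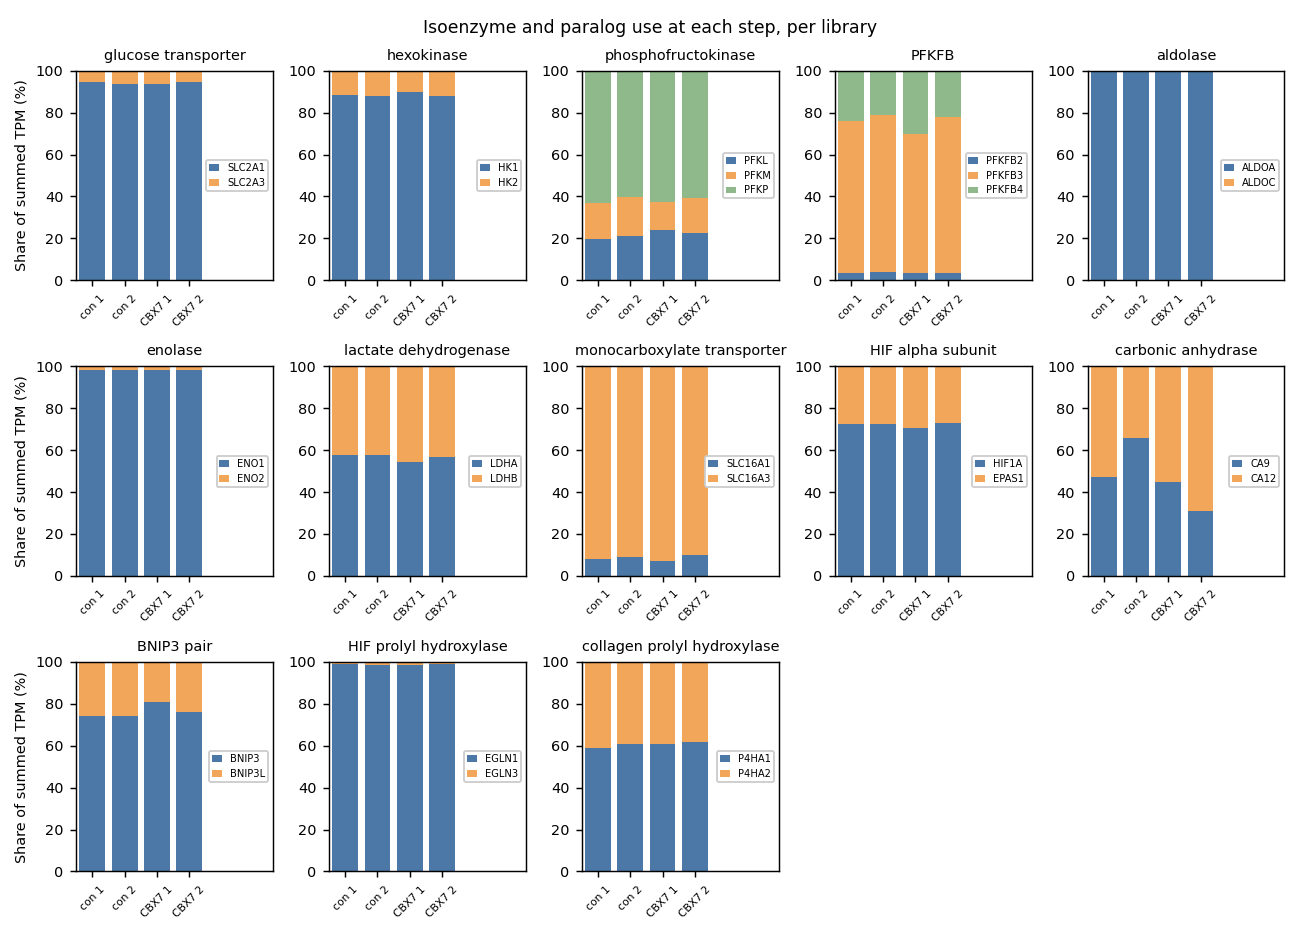
Share of summed TPM (vertical, 0% to 100%) taken by each gene of a step or pair in each of the 4 libraries (con 1, con 2, CBX7 1, CBX7 2), 1 panel a step. One gene holds over 87% of the glucose transporter, hexokinase, aldolase, enolase, monocarboxylate transporter and HIF prolyl hydroxylase panels in every library, while the lactate dehydrogenase panel stays between 54.3% and 57.8% LDHA.

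The lower pathway was the abundant part. GAPDH, the dehydrogenase that generates NADH, had 6712 and 6434 TPM in control cells and 6401 and 5809 TPM in CBX7 cells. Its level was 5203 ± 308 CPM in control and 5280 ± 1197 CPM in CBX7 cells (SD, n = 2), and in CPM the CBX7 libraries lay on either side of the controls, whereas in TPM both lay below them. The log2 fold change of 0.02 (standard error 0.19) was therefore a mean of opposite differences. It became -0.11 after the correction for gene length. It was -0.23 without CBX7 replicate 1 and 0.23 without CBX7 replicate 2. TPI1, which interconverts the triose phosphates, had 1562 and 1486 TPM in control cells and 1585 and 1494 TPM in CBX7 cells. PGK1, the first ATP-yielding enzyme, had 550 and 533.3 TPM in control cells and 533.8 and 581.2 TPM in CBX7 cells. PGAM1, the mutase, had 1539 and 1538 TPM in control cells and 1529 and 1646 TPM in CBX7 cells. In TPM the ranges of the groups overlapped for TPI1, PGK1 and PGAM1, and in CPM both CBX7 libraries lay above both controls for PGAM1. Their log2 fold changes were 0.14 for TPI1 (standard error 0.18), 0.07 for PGK1 (standard error 0.13) and 0.16 for PGAM1 (standard error 0.14). PGK1 was thus the least abundant of the lower steps, at 542 ± 11.8 TPM in control cells against 6573 ± 197 TPM for GAPDH just before it (SD, n = 2).

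ENO1 made up 98.02% to 98.3% of the summed TPM of ENO1 and ENO2. ENO1 had 3360 and 3234 TPM in control cells and 3261 and 3251 TPM in CBX7 cells. ENO2, the neuronal isoenzyme, had 62.2 and 59.9 TPM in control cells and 54.9 and 65.6 TPM in CBX7 cells. ENO3, the muscle isoenzyme, had 3.59 to 6.15 TPM. The final step was PKM, with 2552 and 2561 TPM in control cells and 2206 and 2493 TPM in CBX7 cells, while PKLR, the liver and red cell gene, was listed at 0. Counts per gene do not separate the PKM1 and PKM2 splice forms. The log2 fold changes were 0.11 for ENO1 (standard error 0.16), 0.08 for ENO2 (standard error 0.14) and 0.00 for PKM (standard error 0.13).

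Over the 15 glycolytic members the log2 fold change was positive for 12, beside 50.3% of all tested genes, and 1 had an unadjusted p under 0.05, beside 4.74% of all tested genes. On the CPM scale, both CBX7 libraries lay above both controls for 3 (HK1, ALDOC and PGAM1), beside 15.4% of all tested genes, and below for 1 (PFKM), beside 14.8%. Between the replicate 1 libraries 13 of 15 were higher with CBX7, with a median log2 ratio of 0.14. Between the replicate 2 libraries 8 of 15 were higher and the median was 0.00. The median log2 fold change of the 15 was 0.07 with all libraries. Without CBX7 replicate 1, 7 of the 15 log2 fold changes were positive and their median was -0.04. Without control replicate 1, 13 were positive and the median was 0.11. Without control replicate 2, 10 were positive (median 0.04), and without CBX7 replicate 2, 13 were positive (median 0.18). These genes have a median length of 2294 bases beside 2867 over all tested genes. After the correction for gene length, 12 of the 15 were positive, with a median of 0.05. The summed TPM of the 15 genes was 18774 and 18195 in control and 17912 and 17697 in CBX7 cells, a log2 ratio of -0.05, opposite in sign to the median of the fold changes.

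**Figure D4:**
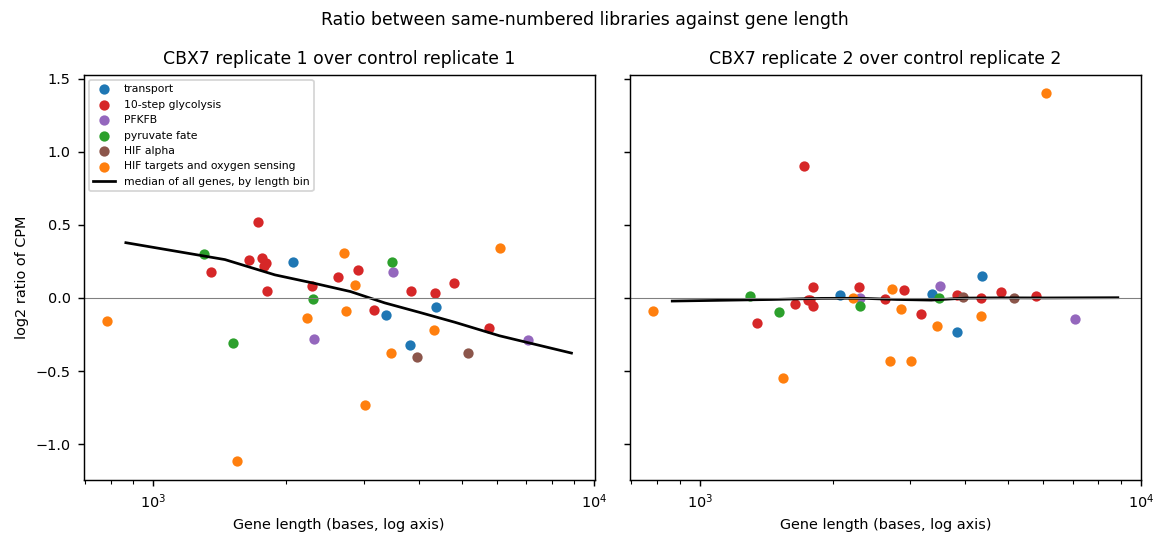
Log2 ratio of CPM between same-numbered libraries (vertical) against gene length in bases (horizontal, log axis), replicate 1 on the left and replicate 2 on the right. Points are the members, colored by role, and the line is the median, by length bin, over the genes averaging 100 counts or more. The line falls from 0.38 to -0.38 on the left and stays between -0.02 and 0.00 on the right, and the glycolytic points on the left lie mostly above 0.

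Pyruvate can be reduced by lactate dehydrogenase or oxidized in mitochondria. LDHA had 1810 and 1723 TPM in control cells and 1626 and 1705 TPM in CBX7 cells. LDHB, whose tetramers favor lactate oxidation, had 1320 and 1269 TPM in control cells and 1369 and 1302 TPM in CBX7 cells. The LDHA to LDHB ratio in TPM was 1.37 and 1.36 in control and 1.19 and 1.31 in CBX7 cells. Both CBX7 libraries were lower, although the distance between them was larger than that between the groups' nearest libraries. The log2 fold change was -0.03 for LDHA (standard error 0.13) and 0.17 for LDHB (standard error 0.17). PDHA1, the catalytic subunit of pyruvate dehydrogenase, had 149.3 to 221.8 TPM, and PDK1, the kinase that inhibits it, 7.66 to 12.7 TPM. Their log2 fold changes were 0.13 (standard error 0.17) and -0.19 (standard error 0.17). Of the other such kinases, which are not members, PDK2 had a log2 fold change of 0.27 (standard error 0.16, adjusted p = 0.951, edgeR) with both CBX7 libraries above both controls, and PDK3 had a log2 fold change of -0.42 (standard error 0.14, unadjusted p = 0.028, adjusted p = 0.927, edgeR).

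The leading lactate transporter gene was SLC16A3 (MCT4, the exporter of glycolytic cells), with 760.7 and 736.5 TPM in control cells and 731.4 and 743.8 TPM in CBX7 cells. SLC16A1 (MCT1) had 67.9 and 72.2 TPM in control cells and 55.2 and 81.2 TPM in CBX7 cells. SLC16A3 took 90.2% to 93.0% of the pair. The log2 fold changes were 0.14 for SLC16A3 (standard error 0.16) and 0.05 for SLC16A1 (standard error 0.14). BSG, the chaperone that both transporters need at the membrane, had 330.7 and 326.3 TPM in control cells and 363.7 and 356.6 TPM in CBX7 cells, with a log2 fold change of 0.26 (standard error 0.16, adjusted p = 0.951, edgeR).

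Of the HIF alpha subunits, HIF1A had 68.1 and 76.2 TPM in control cells and 43.7 and 78.5 TPM in CBX7 cells, and EPAS1 (HIF-2 alpha) had 26.2 and 28.99 TPM in control cells and 18.4 and 28.97 TPM in CBX7 cells. The log2 fold changes were -0.18 for HIF1A (standard error 0.20) and -0.17 for EPAS1 (standard error 0.19). For both, CBX7 replicate 1 was the lowest of the 4 libraries. Between the replicate 1 libraries the log2 ratio of CPM was -0.41 for HIF1A and -0.38 for EPAS1, and between the replicate 2 libraries it was 0.00 for both. HIF1A made up 70.3% to 73.0% of the pair in TPM. HIF3A had at most 0.20 TPM.

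The HIF targets CA9, CA12 and NDRG1 were, with ALDOC, the 4 members with the largest log2 fold changes in size. NDRG1 (ENSG00000104419, chromosome 8 of GRCh38 from 133237171 to 133302022, minus strand), a stress-induced gene and HIF target, had 2697 and 2210 counts in control cells and 1640 and 1742 counts in CBX7 cells. In TPM this was 65.7 and 70.4 against 34.8 and 50.4. Both CBX7 libraries lay below both controls, and the lower of the controls was above the higher CBX7 library on both scales. The CPM was 109.1 ± 5.49 in control and 72.9 ± 7.11 in CBX7 cells (SD, n = 2), a log2 fold change of -0.58 (1.497-fold lower, standard error 0.14, unadjusted p = 0.0073, adjusted p = 0.597, edgeR). Over the libraries left out in turn, which leaves a lone library in a group, it was -0.69 to -0.48.

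Of the mitophagy receptors, BNIP3 had 111.5 and 115.2 TPM in control cells and 102.2 and 109.7 TPM in CBX7 cells, with a log2 fold change of 0.01 (standard error 0.15), which became -0.00054 after the correction for gene length. BNIP3L (NIX) had 38.8 and 40.7 TPM in control cells and 24.5 and 35.0 TPM in CBX7 cells, with a log2 fold change of -0.29 (standard error 0.13, adjusted p = 0.951, edgeR). The CBX7 libraries lay below the controls on both scales for BNIP3L, whereas for BNIP3 they lay below them in TPM and on either side of them in CPM. The share of BNIP3 in the pair was 74.0% ± 0.23 in control and 78.2% ± 3.47 in CBX7 cells (SD, n = 2), and this difference was not tested. From counts per deposited gene length, the control share was 66.3%.

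**Figure D5:**
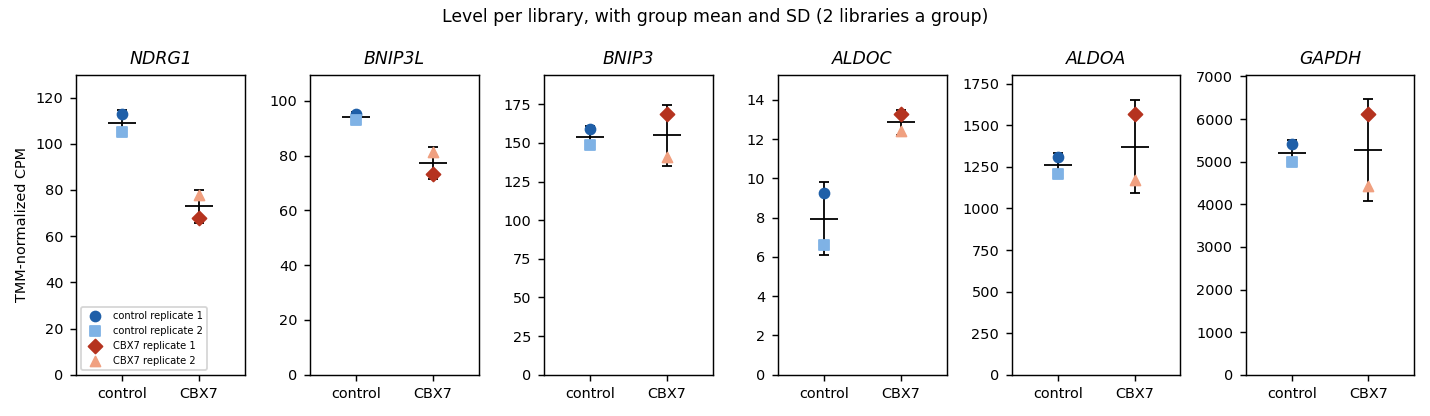
TMM-normalized CPM (vertical, from 0) of NDRG1, BNIP3L, BNIP3, ALDOC, ALDOA and GAPDH in each library, with the group mean and SD (2 libraries a group). The groups do not overlap for NDRG1, BNIP3L and ALDOC, and for BNIP3, ALDOA and GAPDH the CBX7 libraries lie on either side of the controls.

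The carbonic anhydrases, which buffer acid made by glycolysis at the cell surface, were near the lower limit. CA9, the classic hypoxia marker, had 14.9 and 10.9 counts in control cells and 7 and 7.97 counts in CBX7 cells. CA12 had 32 and 16 counts in control cells and 41 and 45 counts in CBX7 cells. They were on opposite sides, CA9 below both controls (log2 fold change -0.83, standard error 0.44, adjusted p = 0.951, edgeR) and CA12 above both (0.80, standard error 0.38, adjusted p = 0.951, edgeR). All CA9 and CA12 levels were under 1 TPM, and in TPM the CA12 groups overlapped, at 0.68 and 0.28 against 0.41 and 0.83.

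Of the oxygen-sensing prolyl hydroxylases, EGLN1 (PHD2) had 30.8 and 30.7 TPM in control cells and 23.2 and 31.4 TPM in CBX7 cells, and EGLN3 (PHD3), itself a strong HIF target, had 0.34 and 0.48 TPM against 0.36 and 0.37 TPM. EGLN1 was below both controls on the CPM scale, with a log2 fold change of -0.17 (standard error 0.13), and EGLN3 had -0.06 (standard error 0.39). Of the collagen prolyl hydroxylases, P4HA1 had 54.7 and 58.6 TPM in control cells and 44.4 and 61.9 TPM in CBX7 cells, and P4HA2 had 38.4 and 37.6 TPM against 28.7 and 38.2 TPM, with log2 fold changes of -0.01 (standard error 0.14) and -0.07 (standard error 0.13). ANKRD37, a small hypoxia-induced ankyrin protein, had 5.12 to 8.26 TPM and a log2 fold change of -0.12 (standard error 0.25).

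Over the 10 HIF target and oxygen-sensing members, 8 log2 fold changes were negative, beside 49.7% of all tested genes, with a median of -0.10. On the CPM scale, both CBX7 libraries lay below both controls for 5 of them (CA9, BNIP3L, NDRG1, EGLN1 and P4HA2), beside 14.8% of all tested genes, and above for 1 (CA12), beside 15.4%. For P4HA2 the nearest libraries were at 54.5 CPM (control replicate 2) and 54.4 CPM (CBX7 replicate 2). In TPM the groups overlapped for P4HA2 and EGLN1, and CA9 had at most 14.9 counts. Over the 10, the median log2 ratio was -0.15 between the replicate 1 libraries and -0.11 between the replicate 2 libraries. Both were negative, though no label states that the numbers pair the libraries. With each library left out in turn, 7 or 8 of the 10 were negative, and the median was -0.20 without control replicate 1, -0.07 without control replicate 2, -0.11 without CBX7 replicate 1 and -0.17 without CBX7 replicate 2. Without CBX7 replicate 1, 6 lay below both controls, as did 35.7% of all tested genes, and without CBX7 replicate 2, 7 did, beside 43.5%. Only NDRG1 among the 10 had an unadjusted p under 0.05 in the test of all 4 libraries, beside 1.32% of all genes on the lower side.

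Genes of the pathway outside the members were listed by role. Of 73 listed, 70 were in the table and 49 were tested, and none passed an adjusted p of 0.05. At an unadjusted p under 0.05 there was 1 higher (ADM) and 1 lower (PDK3), beside 3.42% and 1.32% of all tested genes. Of 22 further HIF targets tested, 17 had a negative log2 fold change, beside 49.7% of all tested genes, with a median of -0.12. In CPM, both CBX7 libraries lay below both controls for 11, beside 14.8% of all tested genes, and above for 1 (ADM), beside 15.4%. Some of the 11 were separated narrowly, such as HILPDA at 12.94 against 13.05 CPM in the nearest libraries. Among these, VEGFA, the angiogenic factor, had 56.6 and 62.4 TPM in control cells and 34.4 and 56.3 TPM in CBX7 cells, with a log2 fold change of -0.31 (standard error 0.15, adjusted p = 0.951, edgeR). PLOD2, a collagen lysyl hydroxylase, had -0.27 (standard error 0.15), ERO1A, an oxidase of disulfide formation, -0.22 (standard error 0.14), and KDM3A, a histone demethylase, -0.22 (standard error 0.16). ADM, the vasodilator peptide adrenomedullin, lay the other way at 0.44 (standard error 0.18, unadjusted p = 0.049, adjusted p = 0.951, edgeR). Without CBX7 replicate 1, 17 of the 22 were negative, beside 49.2% of all genes, and 14 lay below both controls, beside 35.7%. The HIF machinery itself had 10 tested genes, such as ARNT, the partner of the alpha subunits, and VHL, which recognizes hydroxylated HIF. Of these, 6 had a negative value, beside 49.7% of all tested genes, and 4 a positive one, and none had an unadjusted p under 0.05. In CPM, both CBX7 libraries lay below both controls for 4 and above for 0, beside 14.8% and 15.4% of all tested genes.

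Of the 35 further isoenzymes and regulators, 19 stayed under 1 TPM in all libraries and 8 of those were listed at 0 throughout. The near-silent ones include the tissue-restricted or germ-cell forms HK3, PGAM2, PKLR, LDHC, PGK2 and GAPDHS, and the gluconeogenic FBP1. The members have 148 annotated pseudogene rows for 17 parents, and only those of SLC2A3 (at most 1.47% of the parent's count) and BNIP3 exceeded 0.1% of their parent in any library.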

How the data were processed

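RNA of 2 control and 2 CBX7-expressing T24 libraries was sequenced on an Illumina HiSeq instrument. The authors deposited expected counts per gene, TPM per gene and library with group means, a gene length, and their own test columns (a ratio, its log2, and raw and adjusted p-values), which were not used. The submitters' processing notes name cutadapt 1.9.1, HISAT2 2.0.1, HTSeq 0.6.1, DESeq2 and hg19. Between 88.2% and 88.9% of values, or 66.9% to 68.6% of those above 0, were whole (within 1e-06), and 58516 of 60623 identifiers (96.5%) are in GENCODE 29 on GRCh38, used here for coordinates, so which tool made the deposited counts is not settled. TPM followed lengths other than the deposited ones. Reads shared with pseudogenes may be split by that tool, and strand use in counting is not given in the sources used here.

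Counts were rounded and fitted on the whole table in edgeR 4.0.16 under R 4.3.3 (filterByExpr, TMM, glmQLFit, glmQLFTest). The model held condition alone, and p-values were adjusted by Benjamini-Hochberg over 14862 genes. DESeq2 1.42.0 was an alternative. CPM is TMM-normalized. Standard errors are the log2 fold change over the square root of F. Shares are percentages of summed TPM and carry no test. The scripts were tested on simulated data. For the length correction, each gene's log2 CPM was taken as a deviation from its mean over the libraries. A loess fit (span 0.5) of these deviations on log2 length, made per library, was added to the model's offset. Libraries of a group differed beyond sampling noise (chi-square per degree of freedom 6.06 and 54.7), so none was counted as a copy. Intervals and limits of counts cover counting error only.

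All 38 members and CBX7 were named. Values per library are given for the leading and second isoenzyme of each step and for members past an unadjusted p of 0.05 or with separate groups and a log2 fold change of at least 0.5. Other values and other pathway genes were picked as examples after their values were seen. The members, lists and tests were chosen with earlier results of these data known. Some of the listed pathway genes are not reported here by name.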

Additional observations from a re-analysis of the deposited data

How the results depend on the processing

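Neither replicate number is stated to mark a common batch, and with 2 pairs the data cannot establish that the numbers pair the libraries (deviations of same-numbered libraries from their group means correlated at 0.38 over 14862 genes and 0.62 over the 11077 that average 100 counts or more). With a replicate block 2 members (ALDOC and NDRG1) passed an adjusted p of 0.05 (edgeR, adjusted p 0.012 and 0.019), as did 361 of all genes (2.43%). At an unadjusted p under 0.05 there were 3 members and 1511 genes (10.2%). With the replicate block and the length correction together, 2 members and 581 genes (3.91%) passed the adjusted p. Then 5 members and 2019 genes (13.6%) passed the unadjusted p. Over all genes, DESeq2's Wald test gave 67 adjusted and 428 unadjusted calls, and no filter gave 265 and 1368. With each replicate left out in turn, where the lone library is assumed to vary like the other group, 0 to 18 members and 45 to 5491 of all genes passed the adjusted p, and 0 to 20 members and 382 to 6647 genes the unadjusted p.

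With the length correction alone or with the block, HK2 became 0.013 and 0.013 on the log2 scale, GAPDH -0.11 and -0.11, and BNIP3 -0.00054 and -0.0039. The length correction alone also moved, with no change of sign, HK1 to 0.077, GPI to 0.086, PFKP to 0.047 and PFKFB2 to -0.079. Later in the pathway it moved, among others, ALDOA to 0.019, TPI1 to 0.048, PGK1 to 0.16, ENO1 to 0.021 and LDHB to 0.041. PKM became 0.0012 with no filter. With a replicate left out, log2 values spanned -0.27 to 0.079 for HK2, -0.036 to 0.073 for GPI, -0.036 to 0.18 for PFKP, -0.49 to 0.042 for PFKFB2, -0.30 to 0.022 for PFKFB3, -0.099 to 0.32 for ALDOA, -0.075 to 0.33 for TPI1, -0.23 to 0.23 for GAPDH, -0.066 to 0.27 for ENO1, -0.089 to 0.084 for PKM, -0.10 to 0.047 for LDHA, -0.042 to 0.36 for LDHB, -0.059 to 0.30 for PDHA1, -0.070 to 0.16 for SLC16A1, -0.041 to 0.31 for SLC16A3, -0.47 to 0.067 for HIF1A, -0.43 to 0.051 for EPAS1, -0.12 to 0.13 for BNIP3, -0.27 to 0.16 for EGLN3, -0.11 to 0.078 for P4HA1 and -0.26 to 0.017 for ANKRD37. The other 17 members kept their sign in every setting run, though left-out replicates moved PFKL over 0.0057 to 0.24, PDK1 over -0.39 to -0.019, PGK1 over 0.0065 to 0.14, PGAM1 over 0.047 to 0.27, P4HA2 over -0.11 to -0.034, HK1 over 0.019 to 0.046, EGLN1 over -0.23 to -0.11, ENO2 over 0.0055 to 0.14, SLC2A1 over -0.087 to -0.00012 and CA12 over 0.46 to 1.27. With counts per deposited length in place of TPM, the SLC2A1 share of its pair was 1.07 percentage points higher with CBX7. On that scale the control share of PFKFB3 was 84.1%, beside 73.7% in TPM. For BNIP3 it was 66.3%, beside 74.0%, and for CA9 68.8%, beside 56.6%. The cause of these shifts was not tested.

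With either CBX7 library left out, a choice made after seeing the data, 10 to 19 members lay above and 16 to 17 below both controls. For the HIF target and oxygen-sensing members 2 lay above in either case and 6 to 7 below. For the further HIF targets 3 to 5 lay above and 14 to 16 below. A lone library separates from both controls more easily, and the shares of all tested genes rose with it, to 34.1% above and 35.7% below without CBX7 replicate 1 and 44.2% above and 43.5% below without CBX7 replicate 2. The depth limits CA9, CA12 and EGLN3, which had at most 45 counts in a library.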
